A study of Homo sapiens with 19 samples.

Results

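The 9 genes described here encode the amyloid precursor protein, APP, and the proteases and protease subunits that cut it, measured among 19942 protein-coding genes in SH-SY5Y cells, a human neuroblastoma line. They were taken by gene name as 1 processing pathway: the substrate APP, the beta-secretase BACE1, the alpha-secretases ADAM10 and ADAM17, and the gamma-secretase subunits PSEN2, NCSTN, APH1A, APH1B and PSENEN. G3BP1 and G3BP2 are RNA-binding proteins that nucleate stress granules (SGs), and the study asked which RNAs they bind and which RNAs enter SGs. Sodium arsenite (AS) was used to induce the granules. eCLIP, in which RNA crosslinked to a protein by UV light is immunoprecipitated with it and sequenced, gave duplicate libraries of each protein before and after AS, 8 in all. Knockdown cells (siCtrl, siG3BP1 or siG3BP2) gave poly-A libraries, stressed cells gave a cleared lysate (Total) and its SG cores (SG), and untreated and stressed cells gave rRNA-depleted libraries, each condition with 1 library. SG cores were pulled down with an antibody to G3BP1, and whether poly-A RNA was selected from Total and SG is not given in the sources used here. For the rRNA-depleted AS library the label gives 500 μM for 1 h, as the methods do. The untreated rRNA-depleted library is labelled as not treated, and the labels of all remaining libraries, siCtrl and untreated eCLIP included, give 50 mM for 1 h. The methods give 500 μM for 1 h for AS exposure in general and describe the knockdown without AS. The 50 mM labels thus conflict with the methods, which are followed here. Nothing says that the duplicates came from separate cultures, so their spread may be technical.

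APP is a single-pass membrane protein that is cut in alternative ways. Cleavage by BACE1 followed by gamma-secretase releases Abeta, the peptide that forms amyloid plaques in Alzheimer's disease, whereas cleavage by an alpha-secretase falls inside the Abeta sequence and precludes it. gamma-Secretase is a membrane complex of a presenilin, which carries the active site, with nicastrin (NCSTN), an APH1 subunit and PEN-2 (encoded by PSENEN). ADAM10 is regarded as the constitutive alpha-secretase of neurons, and ADAM17, also called TACE, is best known for shedding TNF. SGs are cytoplasmic assemblies of untranslated mRNAs and proteins that form under stress.

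The transcripts of the pathway differ widely in size. On GRCh38, APP (ENSG00000142192) spans chr21:25880535-26171128 on the minus strand, and its canonical transcript has 3583 nt with a 3′UTR of 1120 nt. The transcript of BACE1 (ENSG00000186318, chr11:117285232-117316259, minus strand) has 5835 nt, that of ADAM10 (ENSG00000137845, chr15:58588809-58749791, minus strand) 11158 nt and that of ADAM17 (ENSG00000151694, chr2:9488486-9556732, minus strand) 4391 nt. ADAM10 is the longest of the 9, longer than 97.6% of protein-coding genes, and 8738 nt of it are 3′UTR. Most gamma-secretase transcripts are shorter, with 2249 nt for PSEN2 (ENSG00000143801, chr1:226870184-226927726, plus strand), 2822 nt for NCSTN (ENSG00000162736, chr1:160343294-160358952, plus strand) and 1730 nt for APH1A (ENSG00000117362, chr1:150265399-150269580, minus strand). APH1B (ENSG00000138613, chr15:63276018-63309126, plus strand) has 4138 nt and PSENEN (ENSG00000205155, chr19:35745600-35747519, plus strand) 1124 nt. The median canonical transcript of 20046 protein-coding genes has 2885 nt. PSEN2 lies wholly within a read-through gene on the same strand (ENSG00000288674), and PSENEN shares 1842 bp with another (ENSG00000188223), so reads of these pairs cannot be told apart by position alone. BACE1 overlaps BACE1-AS, ADAM17 overlaps IAH1 and APH1A overlaps C1orf54 on the opposite strand, and strand-specific counting is not stated.

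Because the palindromic letters CCAGGCTGG and CCAGCCTGG form the motif that the study derived for G3BP binding, they were searched in the sense strand of the canonical transcripts. Sites in BACE1 and ADAM10 are shown as examples of these letters, as DNA, 5′ to 3′, with 10 bases on each side in lower case and the motif in capitals.
BACE1, 5′UTR, exon 1: cgcccgctgcCCAGGCTGGccgccgccgt
BACE1, 3′UTR, exon 9: acgtgggtacCCAGGCTGGttcttgggct
ADAM10, 3′UTR, exon 16: gagttagagaCCAGCCTGGgcaaaatagt
The capitals lie at chr11:117316047-117316055 and chr11:117288086-117288094 in BACE1 and at chr15:58591470-58591478 in ADAM10, all on the minus strand. Each of the 2 spellings is the reverse complement of the other, so a search of either strand gives the same sites. The letters do not occur in the canonical transcripts of APP, PSEN2, NCSTN, APH1A and APH1B. Of 19845 canonical transcripts, 28.0% hold at least 1 such site, with 14.3% of those up to the median length and 41.7% of the longer ones. These are matches of letters and not sites of measured binding.

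All 9 genes were expressed in the cells. In TPM, a measure per length of transcript, APP was highest in siCtrl at 262, followed by APH1A at 170, PSENEN at 121 and NCSTN at 67.5. BACE1 had 43.6 TPM, ADAM17 20.7, PSEN2 13.6, APH1B 4.19 and ADAM10 3.98. In bulk RNA, fewer cells that express a gene and less RNA per cell cannot be told apart. With 1 library per condition, neighbours in this order cannot be separated by a spread. APH1A thus exceeded APH1B, the alternative APH1 subunit, by far, and ADAM17 exceeded ADAM10. Markers of sympathoadrenal neuroblastoma were above 1 TPM in all 5 libraries for 10 of 11 genes, with a summed level of 3165 to 5303 TPM, and only TH, the enzyme that starts catecholamine synthesis, was below 1 TPM throughout. Of 12 markers of fibroblasts, epithelium, immune cells, endothelium and astrocytes, 4 were above 1 TPM in all 5 libraries and 7 below 1 TPM in all, with summed levels of 37.8 to 95.9 TPM. The 4 were all the fibroblast markers of the list, COL1A1 at 9.42 to 41 TPM, COL1A2 at 1.60 to 5.81, DCN at 8.73 to 19.2 and LUM at 5.80 to 15.4 TPM, and the part of other cells in the members' values was not tested. CD68, a macrophage marker, was at 0.553 TPM in Total against 28.7 TPM in SG.

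**Figure D1:**
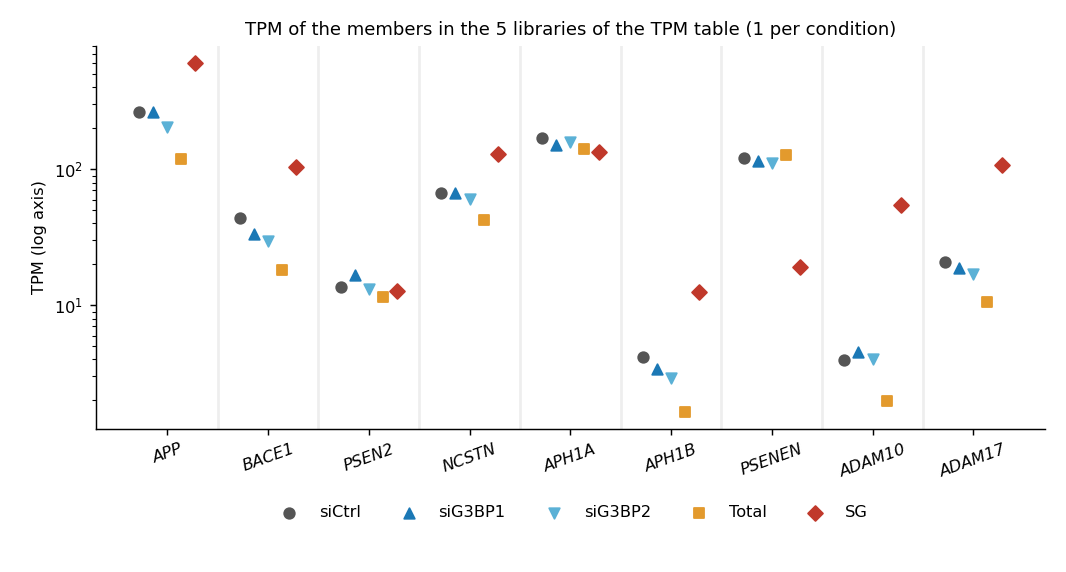
TPM of APP and its secretase genes on a log axis, with 1 symbol for each of the siCtrl, siG3BP1, siG3BP2, Total and SG libraries. The SG symbol stands above the other 4 for APP, BACE1, NCSTN, APH1B, ADAM10 and ADAM17 and below them for PSENEN.

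The comparison of SG cores with Total lysate addressed which of these mRNAs were found in SGs. APP, the substrate, stood at 119 TPM in Total against 603 TPM in SG, and BACE1 at 18.3 against 104 TPM. Both alpha-secretase mRNAs stood further apart, at 1.98 TPM in Total against 55.0 TPM in SG for ADAM10 and 10.5 against 108 TPM for ADAM17. APP, BACE1, ADAM10 and ADAM17 were thus all higher in SG, as were 62.9% of all genes tested by a fold of TPM + 1 above 2. The gamma-secretase subunits did not move together. NCSTN was listed at 42.7 TPM in Total against 130 TPM in SG, and APH1B, the less abundant APH1 gene, 1.66 and 12.5 TPM. PSEN2, the catalytic subunit, had 11.4 and 12.7 TPM, APH1A 141 and 134 TPM, and PSENEN, the smallest subunit, 128 and 19.3 TPM. Genes that encode parts of 1 complex were therefore on opposite sides of the comparison.

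By the study's thresholds, a fold of TPM + 1 above 2 for SG-enriched and below 0.5 for SG-depleted, 6 of the 9 members were SG-enriched, 1 was SG-depleted and 2 were neither. Without the 1 added, the SG to Total ratio was 27.8 for ADAM10, 10.2 for ADAM17, 7.55 for APH1B, 5.70 for BACE1, 5.08 for APP and 3.05 for NCSTN. It was 1.11 for PSEN2, 0.947 for APH1A and 0.151 for PSENEN. The high ratios of ADAM10 and APH1B rest on 1.98 and 1.66 TPM in Total. On TPM + 1 the log2 fold was 2.45 for BACE1, 2.35 for APH1B and 2.34 for APP, so the order of APH1B and BACE1 depends on the 1 added. Of 13560 genes tested, 62.9% were SG-enriched and 9.45% SG-depleted, so 6 of 9 is near the share of all genes. There is no replicate and hence no p-value. The members' median log2 fold of TPM + 1 was 2.34, beside 1.51 over all genes tested.

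The ratio was high for most genes, with a median of 2.78 (1.47 on the log2 scale) over 10958 genes above 1 TPM in both libraries. Relative to this median, ADAM10 was 10.0-fold, ADAM17 3.69-fold, APH1B 2.72-fold, BACE1 2.05-fold and APP 1.83-fold, whereas NCSTN was 1.1-fold. PSEN2 was at 0.400, APH1A at 0.341 and PSENEN at 0.0542 of it. With the median ratio set to 1, the same thresholds gave 3 enriched members, ADAM10, ADAM17 and APH1B, and 3 depleted members, PSEN2, APH1A and PSENEN. With this scaling 33.2% of all genes tested were enriched and 24.1% depleted, so 3 and 3 of 9 are near the shares of all genes too. The read-through genes went in opposite directions. ENSG00000188223 stood at 81.0 TPM in Total against 23.9 TPM in SG, while ENSG00000288674, which contains PSEN2, had 7.92 and 24.4 TPM. With the read-through gene added, the SG to Total ratio was 1.91 for PSEN2 and 0.207 for PSENEN. These sums left PSEN2 below the threshold for enrichment and PSENEN depleted.

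Transcript length moved with these values. Over 13548 genes, the log2 fold of TPM + 1 and the length of the canonical transcript had a Spearman rho of 0.70, given as a description across genes of the same pair of libraries. When genes were divided into 10 bins of length, the median log2 fold went from -1.04 in the shortest bin to 3.69 in the longest. ADAM17 lay 1.02 above the median of its bin on the log2 scale, APP 0.56, ADAM10 0.54, NCSTN 0.21, APH1A 0.16 and APH1B 0.13 above it. BACE1 lay below it at -0.59, PSEN2 at -0.80 and PSENEN at -1.63. Among genes of like length, 82.1% were lower than ADAM17, 69.1% lower than APP and 64.6% lower than ADAM10, while 33.0% were lower than BACE1, 21.6% lower than PSEN2 and 16.2% lower than PSENEN. ADAM17 was thus above the upper quartile of its bin, PSEN2 and PSENEN were below the lower quartile of theirs, and the other 6 members lay within the quartiles. The part of length in the values was not tested.

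**Figure D2:**
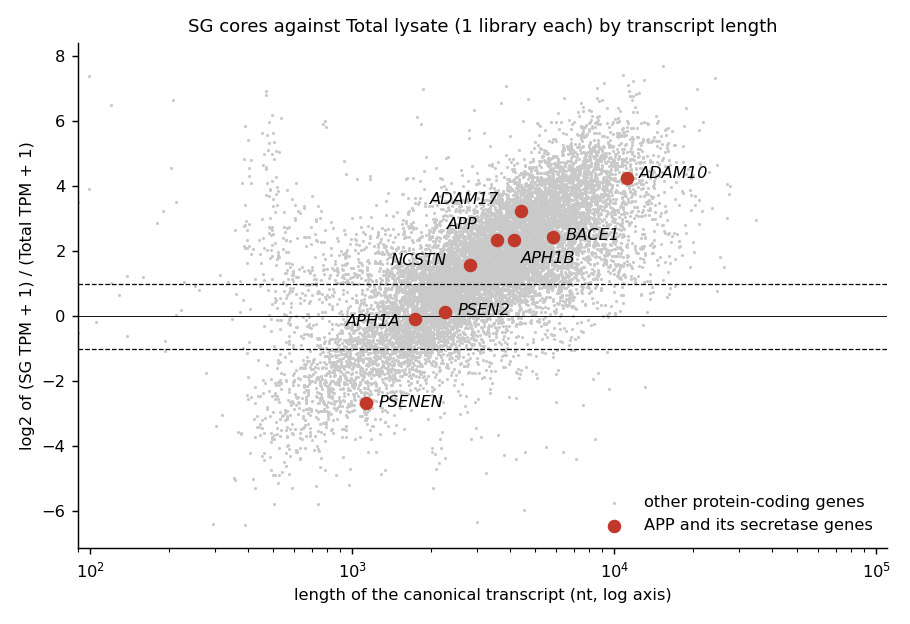
log2 of (SG TPM + 1) over (Total TPM + 1) against the length of the canonical transcript in nt on a log axis, with each gene above 1 TPM in at least 1 of the libraries as a grey point and the 9 members in red, and dashed lines at the thresholds of 2-fold. PSENEN at 1124 nt lies lowest at -2.67, and ADAM10 at 11158 nt highest at 4.23.

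Genes around the pathway, drawn from 5 lists of textbook roles, were described by the same rule, by which 62.9% of all genes tested were enriched and 9.45% depleted. Among relatives of APP and other proteases that cut it, 3 of 5 tested genes were SG-enriched and 0 depleted. These were APLP2, an APP paralog, at 54.7 and 327 TPM in Total and SG, MMP24, also called eta-secretase, at 9.05 and 28.8 TPM, and ADAM9, a further alpha-cleaving protease, at 0.331 and 36.5 TPM. APLP1, the neuronal APP paralog, was lowest with 134 and 159 TPM. Among partners of the alpha-secretases, which include the tetraspanins that escort ADAM10 and the iRhoms that escort ADAM17, 11 of 14 were enriched and 0 depleted. RECK, a membrane-anchored metalloprotease inhibitor, was highest at 1.46 and 28.1 TPM, and TSPAN33 lowest at 14.7 and 11.6 TPM. Among modulators and other substrates of gamma-secretase, 11 of 12 were enriched and 0 depleted. NOTCH2, a receptor that gamma-secretase cuts to release its signalling domain, was highest at 1.13 and 260 TPM, and RER1, a retrieval receptor of the early secretory pathway, lowest at 51.3 and 68.9 TPM. NOTCH2 has near-identical partial copies in the genome, which makes its level uncertain. Among adaptors and trafficking proteins of APP, 11 of 21 were enriched and 0 depleted, from SNX27, an endosomal sorting nexin, at 0.783 and 63.3 TPM to RTN3, a reticulon that binds BACE1, at 89.1 and 54.7 TPM. Among proteases that degrade Abeta, 4 of 5 were enriched and 0 depleted, namely NLN at 5.15 and 48.9 TPM, ECE1 at 22.1 and 136 TPM, IDE at 5.51 and 24.9 TPM, and ECE2 at 0.272 and 2.44 TPM. THOP1 was lowest with 33.0 and 38.6 TPM. Whether these counts differ from the share of all genes was not tested. The list medians of the log2 fold of TPM + 1 were 1.57, 2.15, 3.08, 1.27 and 1.99 in this order, beside 1.51 over all genes tested.

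The knockdowns asked whether loss of G3BP1 or G3BP2 changed the levels of these mRNAs. G3BP1 fell from 18.7 TPM in siCtrl to 6.0 TPM in siG3BP1, a ratio of 0.320, and G3BP2 from 38.1 TPM to 11.4 TPM in siG3BP2, a ratio of 0.299. No member was past 2-fold in either knockdown. Of all genes tested, 1.12% were higher and 1.98% lower in siG3BP1, and 1.23% higher and 2.89% lower in siG3BP2. The 2 knockdowns shared 1 siCtrl library, and neither has a replicate.

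APP had 262 TPM in siCtrl, 262 TPM in siG3BP1 and 206 TPM in siG3BP2, so the ratio was 1.00 in the first and 0.786 in the second. BACE1 had 43.6, 33.4 and 29.9 TPM, and was the member with the lowest ratio in siG3BP1 (0.767) and in siG3BP2 (0.686). ADAM10 had 3.98, 4.52 and 4.03 TPM, and ADAM17 20.7, 18.9 and 16.9 TPM. No member was past 1.5-fold on TPM + 1 in either knockdown, BACE1 and both alpha-secretase mRNAs included. By this threshold 3.71% of all genes tested were higher and 6.23% lower in siG3BP1. In siG3BP2 the shares were 3.42% and 9.70%. PSEN2 had 13.6, 16.8 and 13.2 TPM and the highest ratio in siG3BP1, 1.24. NCSTN had 67.5, 67.0 and 60.6 TPM, APH1A 170, 152 and 158 TPM and PSENEN 121, 116 and 111 TPM. APH1B had 4.19, 3.39 and 2.91 TPM, with a ratio of 0.695 in siG3BP2. The abundant gamma-secretase subunits thus stayed close to their siCtrl levels. Over all genes above 1 TPM in both libraries the median log2 ratio was -0.09 in siG3BP1 and -0.12 in siG3BP2, and relative to it BACE1 stood at -0.29 and -0.41 and APP at 0.09 and -0.22 on the log2 scale of TPM + 1.

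In the surrounding lists, APBA2 and NOTCH2 alone passed 2-fold, both in siG3BP1 and in siG3BP2. APBA2, also called X11-like or Mint2, an adaptor that binds the tail of APP, had 1.37 TPM in siCtrl, 9.67 TPM in siG3BP1 and 5.84 TPM in siG3BP2, and was named after its values were seen. NOTCH2 had 11.6 TPM in siCtrl, 2.39 TPM in siG3BP1 and 1.87 TPM in siG3BP2. At the ends of the other lists, MMP24 had 35.8 TPM in siCtrl, 29.5 TPM in siG3BP1 and 22.8 TPM in siG3BP2, and GGA1, an adaptor for sorting of BACE1, 80.4 TPM in siCtrl and 44.9 TPM in siG3BP1. FURIN, a convertase that matures both ADAM proteases, had 12.7 and 9.98 TPM in siCtrl and siG3BP1, and FRMD8, a partner of the iRhoms at the upper end of the same list, 12.4 and 16.3 TPM. RHBDF2, an iRhom, had 16.2 TPM in siCtrl and 11.3 TPM in siG3BP2, and MAPK8IP1, a scaffold that links APP to kinesin, 95 and 60.2 TPM. None of these 6 passed 2-fold. At the upper ends of the remaining lists, LGMN, the delta-secretase, had 24.6 TPM in siCtrl, 25.1 TPM in siG3BP1 and 22.9 TPM in siG3BP2, and TMED10, a gamma-secretase modulator, 35.2, 34.1 and 34.2 TPM. NUMB, an endocytic adaptor, had 24 TPM in siCtrl and 29.4 TPM in siG3BP1, while in siG3BP2 TSPAN5 had 14.1 TPM against 11.8 TPM and KLC1, a kinesin light chain, 65.6 TPM against 57.4 TPM. Of the Abeta-degrading proteases, ECE1 had 39.1, 35.0 and 29.2 TPM and THOP1 48.7, 41.4 and 43.2 TPM.

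By counts, 0 of 4 relatives of APP, 0 of 14 alpha-secretase partners, 1 of 10 gamma-secretase modulators and substrates, 1 APP adaptor (of 21 tested in siG3BP1 and 20 in siG3BP2) and 0 of 4 Abeta-degrading proteases were past 2-fold in each knockdown. The list medians of the log2 fold of TPM + 1 were -0.10, -0.04, -0.27, -0.02 and -0.07 in siG3BP1, beside -0.08 over all genes tested. In siG3BP2 they were -0.22, -0.29, -0.39, -0.08 and -0.07, beside -0.12.

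Total lysate of AS-treated cells was also set beside siCtrl, although the 2 preparations differ in treatment, lysis and possibly RNA selection, which cannot be told apart. APP was lower in Total, with 119 against 262 TPM (ratio 0.453), and so was BACE1, with 18.3 against 43.6 TPM (ratio 0.419). These were the members past 2-fold on TPM + 1, and 19.6% of 12173 genes tested were lower and 1.28% higher by this rule. Without the 1 added, APH1B (0.396) and ADAM10 (0.497) were also below 0.5. The ratio was 0.510 for ADAM17, 0.632 for NCSTN, 0.832 for APH1A, 0.842 for PSEN2 and 1.06 for PSENEN. The median log2 ratio of all genes was -0.41. SG thus exceeded siCtrl by less than it exceeded Total for APP, at 603 against 262 TPM, and BACE1, at 104 against 43.6 TPM. The same held for ADAM10 at 55.0 against 3.98 TPM and ADAM17 at 108 against 20.7 TPM. It also held for APH1B at 12.5 against 4.19 TPM and NCSTN at 130 against 67.5 TPM. In the surrounding lists 2 of 4, 5 of 14, 5 of 10, 8 of 20 and 0 of 4 genes were lower in Total and 0 higher, with list medians of -1.06, -0.71, -0.997, -0.73 and -0.46 on the log2 scale of TPM + 1, beside -0.41 over all genes. The lowest of each list were MMP24 at 9.05 TPM in Total, SFRP1 at 6.24, NOTCH2 at 1.13, GGA3 at 10.4 and ECE1 at 22.1 TPM. The highest were LGMN at 22.2 TPM, TSPAN5 at 9.78, TMED10 at 25.8, VPS35 at 20.2 and THOP1 at 33.0 TPM.

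Profiles over the 5 libraries were compared by the Euclidean distance of log2(TPM + 1), each centred on its mean, among 10748 genes of at least 10 TPM in 1 library. Closest to APP were BAIAP2L1, an adaptor of the actin skeleton (0.103), PARS2, a mitochondrial prolyl-tRNA synthetase (0.111), and TMEM201, a nuclear membrane protein (0.113). Closest to ADAM10 were CNOT6, a deadenylase subunit (0.0660), SMURF2, a ubiquitin ligase (0.127), and PAFAH1B1, a dynein regulator also called LIS1 (0.128). Closest to BACE1 were BCAR1, an adhesion scaffold (0.0684), an unnamed gene (ENSG00000256500, 0.0795) and SLC9A8, a sodium-proton exchanger (0.0829). The median distance of a gene was 1.39 from APP, 2.15 from ADAM10 and 1.37 from BACE1. Within the pathway BACE1 and APH1B were the closest pair (0.174), followed by APP and BACE1 (0.332), and PSENEN and ADAM10 were farthest apart (5.60). These distances rest on 5 libraries in which SG stands apart, and no test was made.

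In the eCLIP table each gene has 1 value per library, log10 of a whole number plus 1 in a table headed as peaks. The log10 values have 2 decimals, so large numbers could be recovered only approximately. The recovered numbers were scaled to a library sum of 1000000 (CPM), and their sums, approximate too, ranged from 4268911 to 26179736. The CPM of untreated cells in replicates 1 and 2 are given first, then those after AS. For G3BP1, APP had 240 and 370 CPM in untreated cells and 350 and 316 after AS. For G3BP2, it had 235 and 340 in untreated cells and 326 and 343 after AS. The untreated and AS libraries of APP overlapped for G3BP1 and for G3BP2. The level of APP was above that of 97.4% of genes in CPM, and above 89.1% per kb of gene span. BACE1 had 58.9 and 70.4 in untreated cells and 56.7 and 51.1 after AS for G3BP1, and 43.8 and 57.7 in untreated cells and 46.1 and 68.4 after AS for G3BP2. Its AS libraries lay below the untreated ones for G3BP1 and overlapped them for G3BP2.

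The alpha-secretase genes carried high values. ADAM10 had 178 and 165 in untreated cells and 160 and 204 after AS for G3BP1, and 175 and 200 in untreated cells and 171 and 172 after AS for G3BP2. ADAM17 had 162 and 125 in untreated cells and 143 and 195 after AS for G3BP1, and 139 and 98 in untreated cells and 121 and 136 after AS for G3BP2. The AS libraries of ADAM10 lay below the untreated ones for G3BP2, and the others overlapped.

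Among gamma-secretase genes PSEN2 had the highest values, with 178 and 131 CPM in untreated cells and 168 and 151 after AS for G3BP1. For G3BP2 it had 167 and 225 in untreated cells and 149 and 136 after AS, so that both AS libraries lay below both untreated ones. APH1B had 33.9 and 32.8 in untreated cells and 30.5 and 41.5 after AS for G3BP1, and 38.2 and 28.8 in untreated cells and 31.2 and 42.1 after AS for G3BP2. NCSTN had 11.2 and 4.86 in untreated cells and 7.98 and 7.50 after AS for G3BP1, and 8.14 and 9.27 in untreated cells and 9.59 and 14.2 after AS for G3BP2. APH1A and PSENEN were near the floor. The number behind the value lay between 2 and 24 in all libraries for APH1A and between 1 and 18 for PSENEN, so changes of these genes could hardly be detected at this depth. The read-through gene that contains PSEN2 had 29.9 to 43.3 CPM of its own, and the one at PSENEN 0.485 to 1.87.

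**Figure D3:**
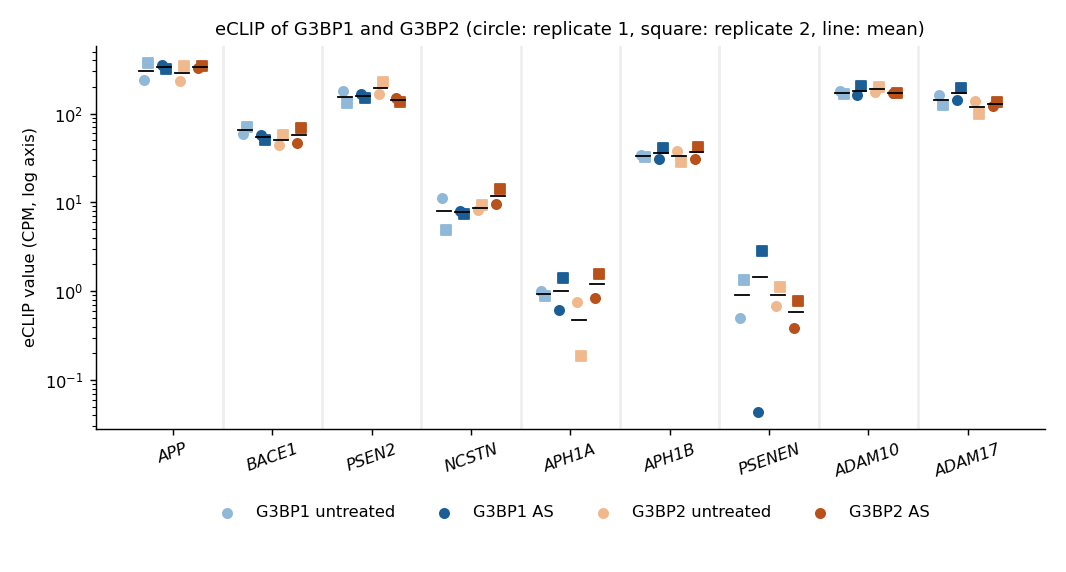
eCLIP value in CPM on a log axis for both proteins before and after AS, with a circle for replicate 1, a square for replicate 2 and a line at the mean of each group. APP lies between 235 and 370 in all 8 libraries, and APH1A and PSENEN lie between 0.0441 and 2.81.

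Since the genes differ in span, levels were compared between them per kb of gene span. PSEN2 then ranked first with a median of 2.76 CPM per kb over 8 libraries, followed by ADAM17 (2.02), BACE1 (1.84), APP (1.15), ADAM10 (1.08), APH1B (1.01), NCSTN (0.556), PSENEN (0.383) and APH1A (0.207). The median of all genes was 0.411, with quartiles of 0.201 and 0.739. All genes here include those not expressed in these cells (4534 protein-coding genes had 0 TPM in siCtrl). Ranks among expressed genes alone were not computed. PSEN2 ranged from 2.28 to 3.90 and overlapped ADAM17 at 1.44 to 2.85, which in turn overlapped BACE1 at 1.41 to 2.27. BACE1 did not overlap APP at 0.810 to 1.27, whereas APP, ADAM10 and APH1B overlapped each other. APH1B in turn overlapped NCSTN, and NCSTN, PSENEN and APH1A each overlapped the next. Of the 9 genes, 6 were thus above the upper quartile of all genes per kb, and APH1A and PSENEN, both with over 100 TPM in siCtrl, were below the median. Conversely, ADAM10 and APH1B had the lowest TPM of the members in siCtrl and eCLIP levels above 87.5% and 85.8% of genes per kb. Whether the values come from exons or introns was not analysed here.

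Whether AS changed the eCLIP value was tested with limma on log2 of the CPM plus 0.5 in 1 fit of all 8 libraries and 18152 genes. No gene of the table passed an adjusted p of 0.05 (0%) in any of the 4 contrasts, members included. At an unadjusted p under 0.05, 379 genes were higher and 393 lower after AS for G3BP1, 280 higher and 254 lower for G3BP2, 62 higher and 79 lower in the interaction of AS and protein, and 109 higher and 112 lower for G3BP2 against G3BP1. These were 4.25%, 2.94%, 0.777% and 1.22% of the genes tested, and 0 members were among them in this fit. Without replicate 1 of G3BP1 after AS, 5 genes were called lower for G3BP1, none of them a member. The 2 against 2 design has little power: in simulated libraries for the G3BP1 contrast, 71 of 200 genes changed by 2 on the log2 scale were recovered, and 4 of 200 changed by 1. These libraries were drawn independently, with counting error added to a spread that already held it. The changed genes were drawn from all those above 1 CPM, so the rates are not those of the members.

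For G3BP1 the log2 change after AS was 0.16 ± 0.23 (SE) for APP, with a 95% interval of -0.39 to 0.71. It was -0.26 ± 0.24 for BACE1 (-0.83 to 0.32), 0.08 ± 0.15 for ADAM10 (-0.27 to 0.42) and 0.23 ± 0.23 for ADAM17 (-0.32 to 0.77). All 4 intervals include 0, and none of them reaches a 2-fold change in either direction. They rest on duplicates whose spread may be technical, so they do not exclude such a change between cultures. For the subunits of gamma-secretase it was 0.06 ± 0.20 for PSEN2, 0.06 ± 0.43 for NCSTN, 0.02 ± 0.50 for APH1A, 0.09 ± 0.26 for APH1B and -0.01 ± 0.83 for PSENEN. The interval of PSENEN ran from -1.97 to 1.95, so even large changes could not have been seen. Adjusted p-values by limma were at least 0.962 for all 9 members, and without scaling between libraries 7 of the 9 changes had the other sign.

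For G3BP2 the log2 change after AS was 0.24 ± 0.23 for APP (-0.31 to 0.80), 0.16 ± 0.24 for BACE1 (-0.42 to 0.73), -0.12 ± 0.15 for ADAM10 (-0.47 to 0.22) and 0.14 ± 0.23 for ADAM17 (-0.41 to 0.69). PSEN2 came nearest to the threshold at -0.44 ± 0.20, with an interval of -0.90 to 0.03, an unadjusted p of 0.0617 and an adjusted p of 0.996 by limma. It was -0.65 without replicate 1 and -0.22 without replicate 2 of untreated G3BP2. NCSTN stood at 0.41 ± 0.43, APH1A at 0.84 ± 0.50, APH1B at 0.13 ± 0.26 and PSENEN at -0.38 ± 0.83. Both AS libraries lay above both untreated libraries for NCSTN and APH1A, as for 14.8% of all genes, and below them for PSEN2 and ADAM10, as for 15.6%. For G3BP1 this held in the lower direction for BACE1, as for 14.5% of genes, and in the upper direction for 0 members, with 13.3% of genes. In the interaction the members ranged from -0.50 for PSEN2 to 0.82 for APH1A, with an adjusted p of 1.00 by limma for each (0.996 with libraries of both proteins paired by treatment and replicate number).

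**Figure D4:**
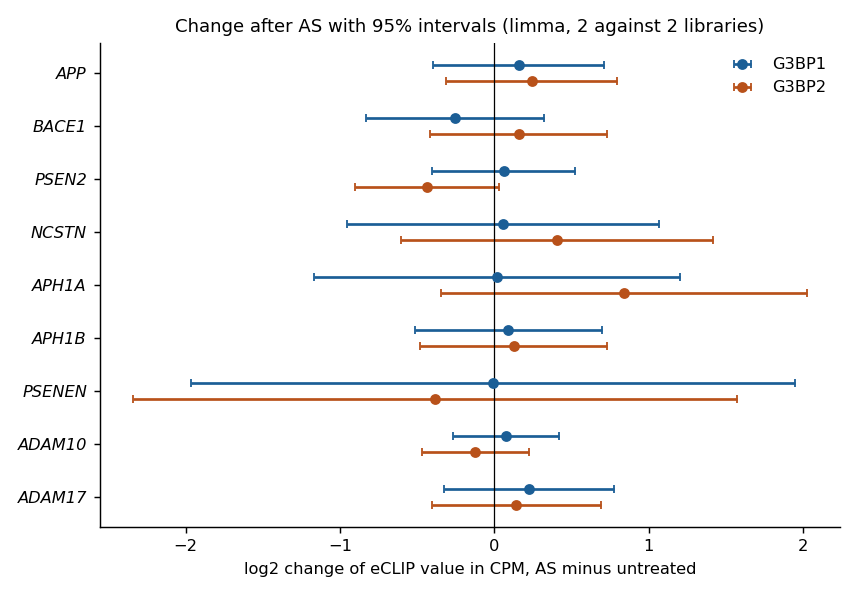
log2 change of the eCLIP value in CPM, AS minus untreated, with 95% intervals from limma for G3BP1 and G3BP2, 2 against 2 libraries each. All 18 intervals include 0, and those of APH1A and PSENEN are the widest.

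Whether the proteins differed was read over both treatments. The log2 difference, G3BP2 minus G3BP1, was -0.03 for APP with an interval of -0.42 to 0.36, -0.15 for BACE1 (-0.55 to 0.26), 0.03 for ADAM10 (-0.22 to 0.27) and 0.09 for PSEN2 (-0.24 to 0.42). It was 0.01 for APH1B (-0.42 to 0.44), 0.39 for NCSTN (-0.32 to 1.11), -0.22 for APH1A (-1.06 to 0.62) and -0.15 for PSENEN (-1.53 to 1.24). The intervals of NCSTN, APH1A and PSENEN reach a 2-fold difference between the proteins, and those of the other 6 do not. These intervals too cover only the spread between the duplicates. ADAM17 had the lowest unadjusted p among the members, 0.0841, at -0.33 with an interval of -0.72 to 0.06 and an adjusted p of 0.999 by limma.

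G3BP1 and G3BP2 libraries of the same treatment and replicate number deviated together (r of 0.533 untreated and 0.420 after AS across genes), so a fit with these 4 pairs as a block, chosen after seeing the data, is given beside the first. ADAM17 was lower for G3BP2 in 4 of 4 pairs, with 139 against 162 and 98 against 125 CPM in untreated cells and 121 against 143 and 136 against 195 CPM after AS. Of 18152 genes, 8.56% were lower and 6.91% higher for G3BP2 in all 4 pairs. In the paired fit the difference for ADAM17 was -0.33 ± 0.08 with an interval of -0.53 to -0.13, an unadjusted p of 0.00697 and an adjusted p of 0.845 by limma. No other member was on 1 side in all 4 pairs. The paired fit called 0 genes at an adjusted p of 0.05, and at an unadjusted p under 0.05 it had 307 genes higher and 429 lower for G3BP2. Without scaling between libraries ADAM17 was 0.0375 higher for G3BP2 on the log10 scale.

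The rRNA-depleted libraries asked whether AS changed the levels of these RNAs within 1 h. The values are per transcript, as reads per kb of transcript scaled to a library of 1000000 reads (RPKM), and the reads behind them were recovered as whole numbers. A read that matches several transcripts of a gene was counted for each, so transcripts of 1 gene are not independent. The canonical transcript of APP had 2366 reads in untreated cells, with an exact 95% Poisson interval of 2272 to 2463, and 2116 reads after AS (2027 to 2208), which gave 49.7 and 52.3 RPKM. BACE1 had 796 reads (742 to 853) and 780 reads (726 to 837), or 10.3 and 11.8 RPKM. ADAM10 had 536 and 600 reads, or 3.61 and 4.77, and ADAM17 566 and 689 reads, or 9.70 and 13.9 RPKM. The ratio of AS to untreated was thus 1.05 for APP, 1.15 for BACE1, 1.32 for ADAM10 and 1.43 for ADAM17.

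Among the gamma-secretase genes PSEN2 had 110 reads (90.4 to 133) and 92 reads (74.2 to 113), or 3.68 and 3.63 RPKM. NCSTN had 529 and 526 reads, or 14.1 and 16.5, and APH1A 442 and 435 reads, or 19.2 and 22.3. APH1B had 56 reads (42.3 to 72.7) and 62 reads (47.5 to 79.5), or 1.02 and 1.33. PSENEN had 123 reads (102 to 147) and 141 reads (119 to 166), or 8.23 and 11.1. The ratio was 0.985 for PSEN2, 1.17 for NCSTN, 1.16 for APH1A, 1.30 for APH1B and 1.35 for PSENEN. The intervals cover counting error only, and no interval covers the difference between cultures, for which there is no replicate.

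No member was past 2-fold on the summed transcripts or on its leading transcript. Of 12712 genes, 3.63% were higher and 0.559% lower by the sum, and of 11306 genes 1.54% were higher and 0.274% lower by the leading transcript. The median ratio of all genes was 1.21, 0.28 on the log2 scale. Relative to it, the canonical transcripts stood between 0.812 for PSEN2 and 1.18 for ADAM17, with APP at 0.868. Of 140 transcripts of the members, 124 were above 1 in at least 1 library and 0 were past 2-fold on RPKM + 1, retained-intron transcripts included. Without the 1 added, a retained-intron transcript of ADAM17 was past 2-fold, with 1.35 RPKM in untreated cells and 3.01 after AS. So was a protein-coding transcript of ADAM10, with 0.769 and 1.66 RPKM from 6 and 11 reads. The leading transcript by summed value was APP-208 for APP, BACE1-214 for BACE1, PSEN2-202 for PSEN2, NCSTN-201 for NCSTN, APH1A-205 for APH1A, APH1B-201 for APH1B, PSENEN-201 for PSENEN, ADAM10-214 for ADAM10 and ADAM17-201 for ADAM17. Their ratios of AS to untreated ran from 0.985 for PSEN2-202 to 1.53 for ADAM10-214, a model of 541 nt with 54 and 70 reads.

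**Figure D5:**
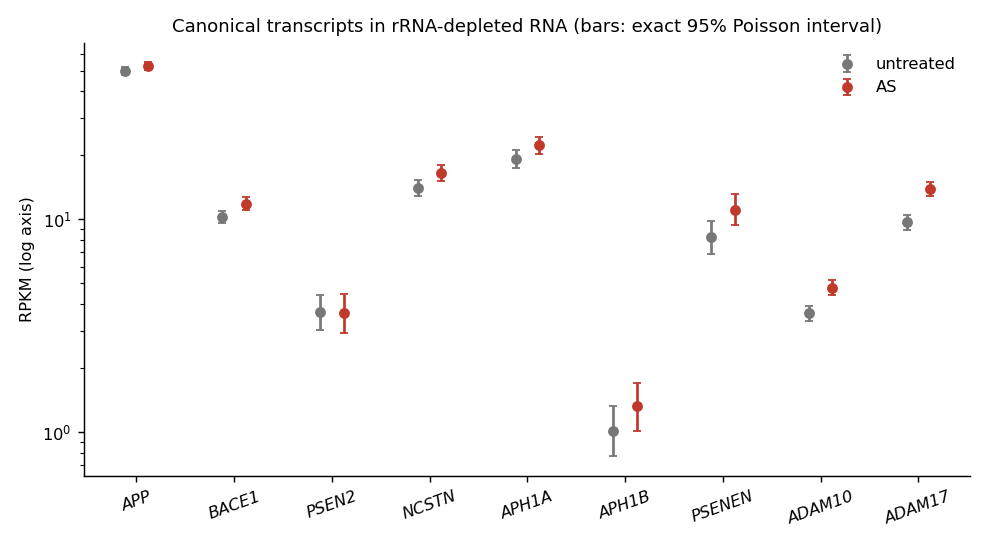
RPKM of the canonical transcript on a log axis in untreated and AS-treated cells, 1 library each, with exact 95% Poisson intervals for counting error. APP lies at 49.7 and 52.3 and ADAM17 at 9.70 and 13.9, with no correction for the median ratio of all genes, 1.21.

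APP is spliced in forms that differ in exon 7, which encodes a Kunitz protease inhibitor domain, and in exon 8. On GRCh38 exon 7 lies at chr21:26000015-26000182 with 168 nt and exon 8 at chr21:25997360-25997416 with 57 nt. The model with all 18 exons, APP-201, had 2366 reads in untreated cells and 2116 after AS. APP-204, which skips exon 8, had 2310 and 2061 reads, and APP-202, which skips both and corresponds to the form best known from neurons, 2131 and 1923 reads. These models had 49.7 and 52.3, 49.1 and 51.6, and 47.8 and 50.8 RPKM. Since the reads of shared exons are counted for each model, the values are nearly alike by construction and do not give the share of each form.

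In the surrounding lists, 1 gene of 13 tested among the alpha-secretase partners was past 2-fold on the summed transcripts after AS. This was RHBDF1, an iRhom, with a sum of 0.969 in untreated and 3.19 in AS-treated cells, named after its value was seen. In the other 4 lists 0 of 5, 0 of 11, 0 of 20 and 0 of 5 genes tested passed 2-fold, for relatives of APP, gamma-secretase modulators, APP adaptors and Abeta-degrading proteases. LGMN had summed values of 36.6 and 62.9, and PICALM, a clathrin adaptor, 186 and 262. NOTCH2 had 19.1 and 14.3, and APBA2 11.6 and 8.62. APLP1 had 196 and 219, FRMD8 13.3 and 12.3, TSPAN5 12.5 and 18.3, TMED10 139 and 159, ECE1 99.8 and 96.1, and IDE 156 and 201. The list medians of the log2 fold were 0.30 for relatives of APP, 0.19 for alpha-secretase partners, 0.18 for gamma-secretase modulators, 0.16 for APP adaptors and 0.33 for Abeta-degrading proteases, beside 0.27 over all genes tested.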

How the data were processed

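For eCLIP the authors trimmed and deduplicated reads with fastp, aligned them with STAR to GRCh38.p13 and called peaks with CLIPper against SMInput. They deposited 1 value per gene and library on a log10 scale, and which of these steps it includes is not given in the sources used here. The 4 SMInput libraries were not analysed here. The TPM of the other table, from HISAT2 and StringTie, were deposited as the authors made them and carry no depth. HISAT2 2.1.0 is also named in the submitters' processing notes. The deposited rRNA-depleted values carry a TPM header but behave as RPKM: 100% and 99.9993% of values gave whole reads within 0.01 for totals of 13291958 and 11281587 reads. Summed over transcripts these reads came to 23301040 and 23353992, so reads were counted repeatedly.

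The 15 data columns were assigned to samples by name. Genes were matched by Ensembl ID and transcripts by ID (91.1% found) to a GENCODE release later than the authors'. eCLIP numbers in CPM plus 0.5 were tested with limma 3.58.1 in R 4.3.3 (trend, Benjamini-Hochberg at 0.05, genes with a number of at least 10 in at least 2 libraries), after a test on simulated data. Folds between single libraries used TPM or RPKM plus 1, a threshold of 2 and a minimum of 1, with no test. Such folds understate the change of low genes. All members were named, with the highest and lowest gene of at least 10 TPM per list, the leading transcripts and the 3 nearest profiles of APP, ADAM10 and BACE1. The members and lists were chosen with earlier results of these data known. Alternatives changed the scaling, filter, pseudocount, fold threshold and replicate block, and left out each eCLIP library. Python 3.11.15 was used with pandas 2.3.3, numpy 2.4.6, matplotlib 3.10.9 and scipy 1.17.1. Some matches to the motif are not reported here.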

Additional observations from a re-analysis of the deposited data

How the results depend on the processing

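The limits are those of 1 library per RNA-seq condition and 2 per eCLIP group. The 6 SG-enriched members became 3 with the median ratio set to 1, while fold 1.5, another pseudocount, no minimum or the added read-through gene left 6. Among all genes the enriched share went from 62.9% to 33.2% and the depleted share from 9.45% to 24.1% with the median set to 1, and the enriched share was 71.0% at fold 1.5. PSEN2 and APH1A were depleted there at -1.16 and -1.53 on the log2 scale, and APP (0.87), BACE1 (just under the threshold at 0.999) and NCSTN (0.13) were neither. The knockdown and rRNA-depleted counts of 0 members were the same under all alternatives run. In eCLIP the number of genes called stayed at 0 except without replicate 1 of G3BP1 after AS, where 5 were lower for G3BP1 (range 0 to 5 over libraries left out), and with the deposited values and the replicate number as a block, an alternative chosen after seeing the data, where 4 were called for G3BP1 and 3 for G3BP2. A lone library left in a group was assumed to vary like the others. No member passed in any setting, with adjusted p-values by limma from 0.388 upwards.

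With the replicate block alone 0 genes were called in every contrast. In this balanced design a block cannot move the members' estimates, only their errors. Replicate differences correlated between G3BP1 and G3BP2 within a treatment (r of 0.533 and 0.420 across genes) but hardly between treatments (0.0820 to 0.148), so the numbers were taken as pairs between the proteins, in an alternative chosen after seeing the data, and not between treatments. With those pairs as a block 0 genes were called for G3BP2 against G3BP1 or in the interaction. At an unadjusted p under 0.05 there were 307 higher and 429 lower for the former, against 109 and 112 without pairs.

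Over members and contrasts, 225 settings moved the estimate or its scale. Signs of the members' eCLIP changes, none past the threshold, turned in 60 of them. The deposited log10 scale enters these counts both with and without the block, although its estimates are the same in both. Of the moved settings that left out 1 library, 31 of 144 turned the sign. The other 153 settings left the estimate where it was. Library sums differed several-fold, and on the deposited log10 scale with no scaling, with or without the block, the change after AS for G3BP1 was -0.065 for APP, -0.095 for PSEN2, -0.09 for NCSTN, -0.11 for APH1A, -0.085 for APH1B, -0.09 for ADAM10 and -0.045 for ADAM17. For G3BP2 it was 0 for APP, -0.025 for BACE1, -0.035 for APH1B and -0.03 for ADAM17, and for G3BP2 against G3BP1 0.128 for APP, 0.0925 for BACE1, 0.19 for PSENEN and 0.0375 for ADAM17. With a pseudocount of 2 CPM PSENEN stood at 0.12 for G3BP1. With 1 library left out, the log2 change for G3BP1 ranged from -0.15 to 0.47 for APP, from -0.16 to 0.28 for PSEN2, from -0.50 to 0.62 for NCSTN, from -0.37 to 0.40 for APH1A, from -0.13 to 0.31 for APH1B, from -1.31 to 1.29 for PSENEN and from -0.10 to 0.25 for ADAM10. For G3BP2 it ranged from -0.65 to -0.22 for PSEN2, from -0.0227 to 0.51 for APP, from -0.125 to 0.44 for BACE1, from -0.0897 to 0.34 for APH1B and from -0.11 to 0.39 for ADAM17. For G3BP2 against G3BP1 it ranged from -0.19 to 0.12 for APP, from -0.0177 to 0.20 for PSEN2, from -0.44 to 0.0012 for APH1A, from -0.10 to 0.12 for APH1B, from -0.80 to 0.50 for PSENEN and from -0.0612 to 0.11 for ADAM10. The cause was not tested.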
